A study of Rattus norvegicus with 10 samples.

Results

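A set of 9 genes that striatal projection neurons use for dopamine, adenosine and cyclic AMP signalling, Rgs9, Pde10a, Pde1b, Adcy5, Gpr6, Gnal, Scn4b, Syndig1l and Rasd2, were read in the medial prefrontal cortex (mPFC) of 10 male rats. They were taken by symbol from the per-rat expression tables, where all 9 were found among 22081 genes, and all 9 passed the filter on low counts that left 14135 tested genes. The set was chosen by symbol with earlier values of these libraries known, namely CPM and HC vs. LC fold changes and the high level of striatal genes in 1 rat, so their levels and HC vs. LC differences are given as a description.

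The study compared 5 high cue (HC) and 5 low cue (LC) rats, divided at the median of lever presses for a cocaine-paired cue. The paper reports that HC rats took more cocaine in total than LC rats, so phenotype and intake cannot be told apart here. All were outbred male Sprague-Dawley rats trained from 11 weeks of age to press a lever for cocaine infusions of 0.75 mg/kg each, with tissue taken on day 27 after 10 days of abstinence; no cocaine-naive rat was among the libraries used here. The mPFC piece held infralimbic, prelimbic and anterior cingulate cortex, cut by hand and homogenized whole, with 1 library per rat, and rats are named by the number in their label. The names of the deposited tables, but not the sample labels, also carry the word Cue (HC rats 9, 10 and 11, LC rats 12, 13 and 14) or NoCue (HC rats 15 and 16, LC rats 2 and 4). Some rats of each phenotype had a second cue test before tissue was taken, and no source read here says whether these words record it.

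Exon reads ranged from 11296517 to 26664008 per library. The library of LC rat 2 stood apart, with 28.4% of exon reads from mitochondrially encoded genes against 7.65 to 12.0% in the other 9 and a TMM scaling factor of 0.772 against 1.00 to 1.05. Cortical markers fitted the labelled tissue: Slc17a7, the vesicular glutamate transporter of cortical excitatory neurons, was at 1095 to 2020 CPM (exon reads per 1000000 after TMM scaling) in every rat and Tbr1, a deep-layer transcription factor, at 86.1 to 105 CPM. In homogenized tissue, fewer cells of a type and less RNA per cell cannot be told apart.

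Striatal projection neurons, the output cells of caudate, putamen and nucleus accumbens, read dopamine and adenosine through receptors that raise or lower cyclic AMP. In these neurons the stimulatory receptors couple to the olfactory-type G protein and to adenylyl cyclase 5, and phosphodiesterases remove the product. Direct-pathway neurons carry the D1 dopamine receptor, and indirect-pathway neurons the D2 receptor and an adenosine receptor. Cortical neurons use the same pathway with other members of several of these families.

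RefSeq promoter windows, 250 bases before to 50 bases after the start, matched 7 of the 9 genes by symbol (8 windows, since Pde10a has 2); Pde1b and Syndig1l had none. Of the genes with a window, the 4 that stood furthest above the other rats in LC rat 4 are printed 5′ to 3′ beside Adcy5, whose level there was close to the other rats; capitals mark TGACG, the core of the cyclic AMP response element, on either strand.
Gpr6, GRCr8 chr20:46075202-46075501, minus strand: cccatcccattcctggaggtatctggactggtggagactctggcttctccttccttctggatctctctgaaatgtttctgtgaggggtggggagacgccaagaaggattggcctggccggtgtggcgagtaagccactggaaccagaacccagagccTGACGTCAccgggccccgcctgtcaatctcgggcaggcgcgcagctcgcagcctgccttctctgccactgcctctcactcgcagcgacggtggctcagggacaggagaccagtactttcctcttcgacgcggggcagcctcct
Pde10a, GRCr8 chr1:54765619-54765918, minus strand: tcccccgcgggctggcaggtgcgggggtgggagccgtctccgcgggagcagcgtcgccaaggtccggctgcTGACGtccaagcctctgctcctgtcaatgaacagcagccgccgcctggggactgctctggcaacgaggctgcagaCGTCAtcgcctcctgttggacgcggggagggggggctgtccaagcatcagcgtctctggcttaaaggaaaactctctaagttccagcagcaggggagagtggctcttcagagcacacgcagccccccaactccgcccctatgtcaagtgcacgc
Rgs9, GRCr8 chr10:94770338-94770637, minus strand: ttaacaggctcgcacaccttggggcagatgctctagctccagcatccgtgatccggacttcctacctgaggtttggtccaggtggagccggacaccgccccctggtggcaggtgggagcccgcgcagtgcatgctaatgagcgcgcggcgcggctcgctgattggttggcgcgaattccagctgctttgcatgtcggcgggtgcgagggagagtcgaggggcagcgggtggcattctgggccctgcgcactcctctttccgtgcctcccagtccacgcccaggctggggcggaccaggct
Scn4b, GRCr8 chr8:54343623-54343922, plus strand: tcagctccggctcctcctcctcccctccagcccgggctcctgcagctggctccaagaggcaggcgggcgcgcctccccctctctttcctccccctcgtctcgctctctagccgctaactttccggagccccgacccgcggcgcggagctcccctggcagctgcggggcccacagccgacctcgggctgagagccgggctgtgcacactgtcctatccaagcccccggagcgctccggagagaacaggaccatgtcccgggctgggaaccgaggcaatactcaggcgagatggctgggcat
Adcy5, GRCr8 chr11:79123294-79123593, minus strand: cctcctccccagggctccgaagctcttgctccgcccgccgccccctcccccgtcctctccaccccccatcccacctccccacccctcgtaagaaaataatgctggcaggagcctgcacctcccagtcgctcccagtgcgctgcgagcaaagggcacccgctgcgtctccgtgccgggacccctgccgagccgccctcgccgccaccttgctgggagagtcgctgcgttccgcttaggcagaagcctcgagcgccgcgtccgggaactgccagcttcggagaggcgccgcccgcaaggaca
Gpr6 held the full palindrome TGACGTCA at bases 158 to 165 of its window, which 1.83% of 33469 rat promoter windows of that length contain. TGACG, searched on both strands and overlapping that palindrome, was in the windows of Gpr6 and of the first Pde10a start (2 matches each) and in 21.2% of all windows. GGGCGG, the GC box, was in the windows of Rgs9, Pde10a (both), Adcy5 and Rasd2 and in 33.1% of all windows. Neither TATAAA (14.2% of all windows) nor TGANTCA (7.33%) was found in the 8 windows. These are letter matches, and binding was not measured here.

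Levels between genes were compared per length, as deposited TPM. The median over the 10 rats was 109 TPM for Pde1b, 89.4 for Rasd2, 84.4 for Adcy5, 81.8 for Gnal, 24.2 for Pde10a, 10.8 for Scn4b, 8.29 for Rgs9, 2.29 for Syndig1l and 1.45 for Gpr6. Pde1b lay above Rasd2 in 9 of 10 rats and Gnal above Pde10a in 10 of 10, while Adcy5 lay above Gnal in 4 of 10, so that pair had no fixed order. All 9 transcripts were thus read in every mPFC library, Gpr6 from as few as 15 exon reads in a rat and Syndig1l from as few as 16.

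Among the 9, Gpr6, a constitutively active receptor that raises cyclic AMP and is enriched in indirect-pathway neurons, varied most (chromosome 20, 45813169 to 45815940 of Rnor_6.0). HC rats 9, 10, 11, 15 and 16 had 1.10, 1.65, 0.71, 2.04 and 2.00 CPM. LC rats 2, 4, 12, 13 and 14 had 3.37, 12.8, 1.40, 1.09 and 1.32 CPM. LC rat 4 was 9.17 times the median of the other 9 rats, LC rat 2 came next, and the remaining 3 LC rats lay inside the HC range. The exon reads behind them were 189 for LC rat 4, 35 for LC rat 2 and from 15 to 56 elsewhere.

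Downstream of such receptors stands Gnal, the alpha subunit of the olfactory-type stimulatory G protein (chromosome 18, 62805410 to 62944630). The HC rats, in the same order, had 60.8, 63.2, 68.7, 65.8 and 71.3 CPM, and the LC rats 62.7, 81.0, 65.5, 60.9 and 66.6 CPM. LC rat 4 was again the highest, at 1.24 times the median of the others, and the groups overlapped.

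Rgs9, which speeds the shut-off of inhibitory G proteins and in striatum acts on dopamine and opioid receptor signalling (chromosome 10, 97509971 to 97582188), was at 10.1, 9.06, 9.33, 5.97 and 3.40 CPM in the HC rats. The LC rats had 16.3, 33.7, 6.40, 4.74 and 11.0 CPM. LC rat 4 was 3.72 times the median of the others and LC rat 2 was second. The 2 HC rats whose tables are named NoCue were among the 3 lowest of all 10.

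Adcy5, the main striatal adenylyl cyclase (chromosome 11, 68695839 to 68842320), was at 193, 172, 186, 188 and 159.7 CPM in the HC rats and 96.7, 219, 179, 189 and 193 CPM in the LC rats. LC rat 2 was the lowest of all and LC rat 4 the highest, at 1.18 times the median of the others. The other 3 LC rats lay inside the HC range.

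Both phosphodiesterases of the set remove the cyclic nucleotides. Pde10a, a dual cyclic AMP and cyclic GMP phosphodiesterase abundant in striatal projection neurons (chromosome 1, 52360296 to 52544450), was at 38.6, 38.7, 40.3, 48.8 and 42.5 CPM in the HC rats and 55.5, 75.6, 38.4, 45.0 and 32.1 CPM in the LC rats. Pde1b, a phosphodiesterase switched on by calcium and calmodulin (chromosome 7, 145117951 to 145145376), was at 88.7, 89.1, 96.8, 98.1 and 93.9 CPM in the HC rats and 100.3, 133, 94.6, 93.7 and 92.9 CPM in the LC rats. For both, LC rat 4 was the highest and LC rat 2 the second, and LC rat 4 stood 1.88 times over the median of the others for Pde10a and 1.41 times for Pde1b.

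Rasd2, also called Rhes, is a small GTP-binding protein enriched in striatum (chromosome 19, 14653198 to 14663914). It was at 142, 165, 129.6, 174 and 145 CPM in the HC rats and 79.5, 176, 133, 203 and 112 CPM in the LC rats. Here alone of the 9 genes LC rat 4 was not the highest, since LC rat 13 lay above it, and LC rat 2 was the lowest.

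Scn4b, a sodium channel beta subunit linked to the resurgent current (chromosome 8, 49441106 to 49456279), was at 21.0, 13.9, 19.7, 27.9 and 26.4 CPM in the HC rats and 17.5, 65.3, 21.4, 39.3 and 18.9 CPM in the LC rats. Syndig1l, a membrane protein gene known for its high level in caudate and putamen (chromosome 6, 108393628 to 108415093), was at 2.09, 1.89, 1.70, 1.27 and 1.39 CPM in the HC rats and 3.37, 12.3, 1.48, 0.882 and 3.47 CPM in the LC rats. LC rat 4 was 3.11 times the median of the others for Scn4b and 7.19 times for Syndig1l. LC rat 13 was the second highest for Scn4b and the lowest for Syndig1l.

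**Figure D1:**
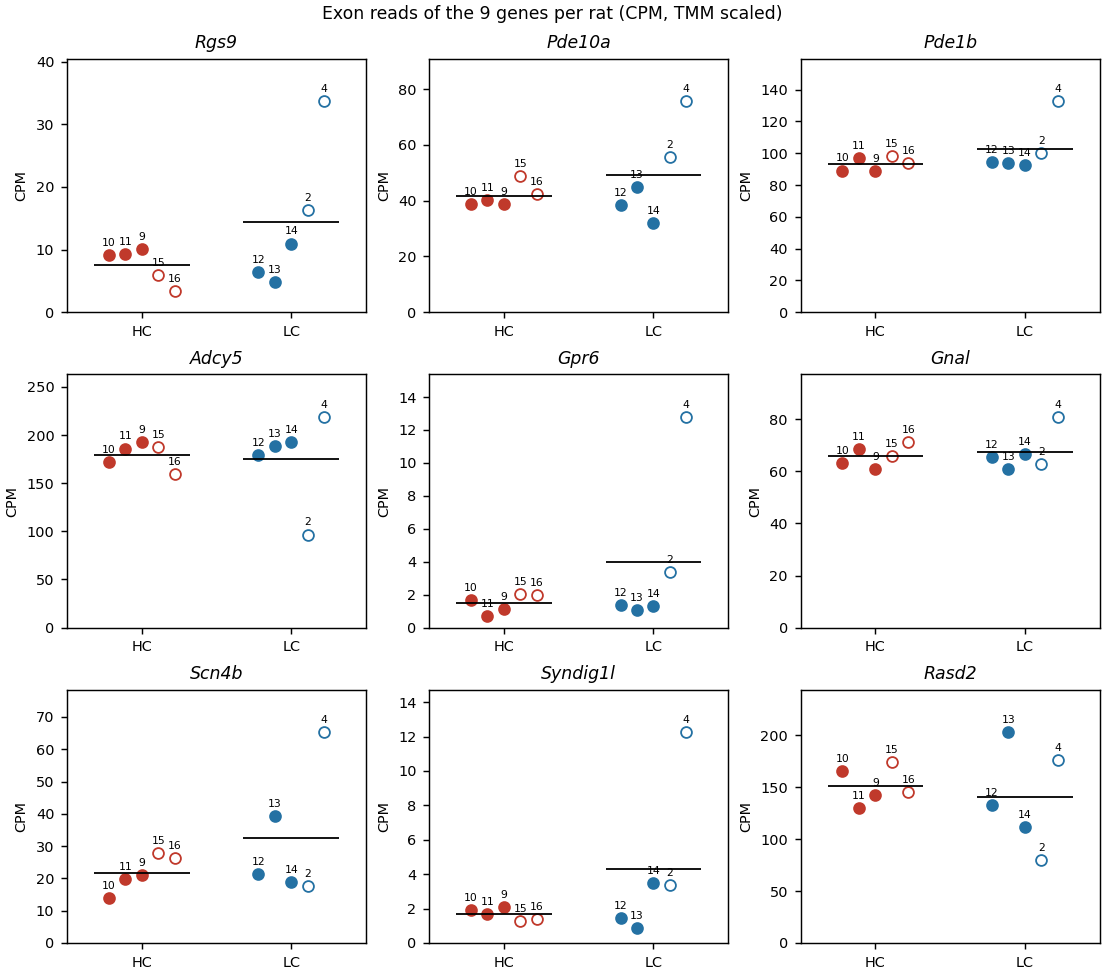
Each panel plots 1 gene in CPM (exon reads per 1000000, TMM scaled, linear axis from 0) for the HC rats (red) and LC rats (blue), with the rat number above each point, filled points for Cue and open points for NoCue in the table name, and a line at each group's mean. LC rat 4 is the highest point in 8 of the 9 panels, and LC rat 2 the lowest for Adcy5 and Rasd2.

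Gpr6, Syndig1l, Rgs9 and Scn4b, 4 of the 9 genes, were at least 2 times higher in LC rat 4 than the median of the other 9 rats, as were 1.97% of all tested genes, and LC rat 4 was the highest of the 10 rats for 8 of the 9, as it was for 7.08% of all tested genes. Since the genes were picked with this rat's levels known, these shares carry no test. The 4 genes with the largest ratio were the 4 with the lowest median TPM. With LC rat 4 left out, the LC mean went from 4.00 ± 5.01 (SD, n = 5) to 1.80 ± 1.06 CPM (SD, n = 4) for Gpr6 and from 14.4 ± 11.7 to 9.60 ± 5.17 CPM for Rgs9, against HC means of 1.50 ± 0.58 and 7.58 ± 2.82 CPM (SD, n = 5).

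**Figure D2:**
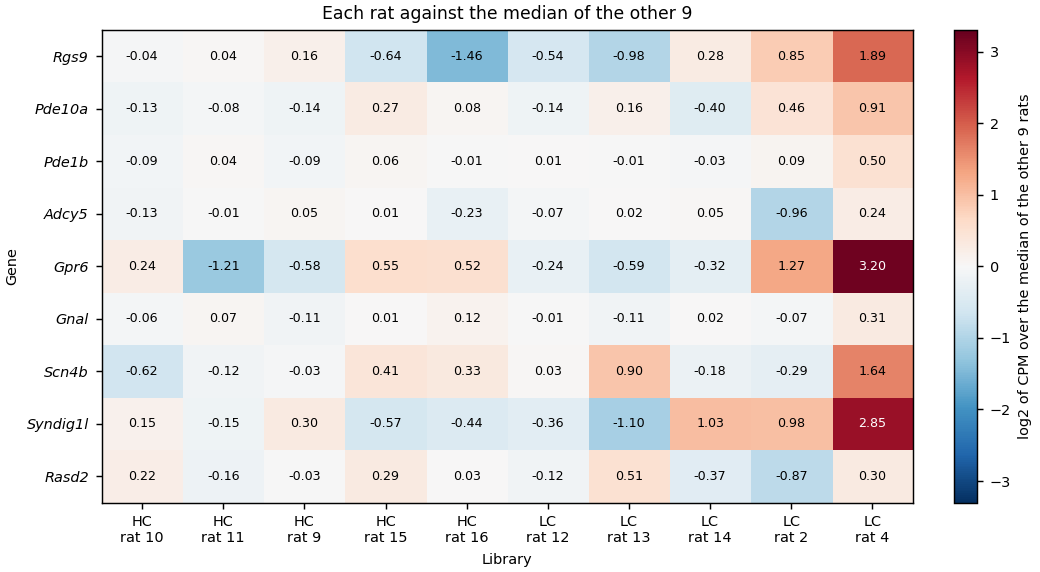
Colour and number give the log2 of each rat's CPM over the median of the other 9 rats, with genes in rows and libraries in columns. The column of LC rat 4 is positive for all 9 genes, from 0.24 for Adcy5 to 3.20 for Gpr6, while that of LC rat 2 holds both signs, from -0.96 for Adcy5 to 1.27 for Gpr6.

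Reads in introns of the same genes gave another view of the same libraries. Relative to library size, LC rat 4 had 5.23 times the median of the other rats for Scn4b (139 intron reads in all rats), 4.30 times for Syndig1l (63 reads) and 2.58 times for Rgs9 (2481 reads). For Rgs9 LC rat 2 was higher still, at 37.4 intron reads per 1000000 TMM-scaled exon reads against 32.1 in LC rat 4 and 4.61 to 16.8 in the other 8. The ratio was 1.35 for Pde1b, 1.32 for Gnal, 1.17 for Pde10a, 1.07 for Adcy5 and 0.861 for Rasd2, and Gpr6 had 5 intron reads in all. Introns held 57.7% of the Rgs9 gene reads, and no source read here says whether reads were assigned by strand, so reads of an overlapping gene cannot be told apart.

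Over all 10 rats 7 of the 9 genes had a lower and 2 a higher estimate in HC than in LC rats. Of all 14135 tested genes 6912 had a lower one. The adjusted threshold was passed by 0 of the 9. In the quasi-likelihood test of edgeR, adjusted p was 0.885 to 0.962 over the 9, and 0 of the 14135 genes passed 0.05, with 246 (1.74%) at an unadjusted p under 0.05. DESeq2, limma-voom and limma-trend on TPM also gave 0 genes at an adjusted p of 0.05. Syndig1l alone of the 9 was past that unadjusted level, lower in HC as were 1.02% of all genes, by a log2 difference of -1.35 with a standard error of 0.59. Gpr6 had -1.41 (standard error 0.68), Rgs9 -0.91 (0.49), Scn4b -0.58 (0.35), Pde10a -0.24 (0.20), Pde1b -0.14 (0.10), Gnal -0.03 (0.09), Adcy5 0.03 (0.17) and Rasd2 0.10 (0.21). The median was -0.24, against 0.005 over all tested genes. The groups overlapped for all 9, and the share of all genes for which they do is not given here. Without LC rat 4 the estimates were -0.21 for Gpr6, -0.32 for Rgs9, -0.16 for Scn4b and -0.45 for Syndig1l, the median was -0.03 and 0 of the 9 genes were past the unadjusted level. Without LC rats 2 and 4 they were 0.23 for Gpr6, 0.04 for Rgs9 and -0.25 for Syndig1l, with a median of 0.01. In limma-voom Gpr6 was at -0.67, Rgs9 at -0.56 and Syndig1l at -0.72.

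Rats whose tables are named Cue were then compared with those named NoCue. With phenotype in the fit, Gpr6 (log2 difference -1.88, standard error 0.46) and Pde10a (-0.50, standard error 0.14) were lower in Cue at an unadjusted p under 0.05, 2 of 9 where 9.97% of all genes were past that level in either direction. The lowest adjusted p of the 9 was 0.494 (edgeR). Without LC rat 4 these became -1.08 for Gpr6 (standard error 0.28) and -0.34 for Pde10a (standard error 0.12).

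Within the Cue tables (3 HC and 3 LC rats) 0 of 9 genes reached an unadjusted p of 0.05, as did 0.934% of all genes, and the median was -0.03. Within the NoCue tables (2 HC and 2 LC rats) it was 4 of 9, where 22.4% of all genes did so: Rgs9 at -2.38 (standard error 0.44), Syndig1l at -2.57 (0.69), Gpr6 at -2.01 (0.55) and Pde10a at -0.52 (0.18), all with an adjusted p of 0.197 (edgeR). The interaction of phenotype and word was past the unadjusted level for these 4 genes, beside 13.3% of all genes, with an adjusted p of 0.368 in edgeR. LC rats 2 and 4 are the whole LC arm of the NoCue tables, so phenotype, word and these 2 libraries cannot be told apart there. Without LC rat 4 the median within NoCue was -0.06, with the lone LC rat assumed to vary like the other groups.

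**Figure D3:**
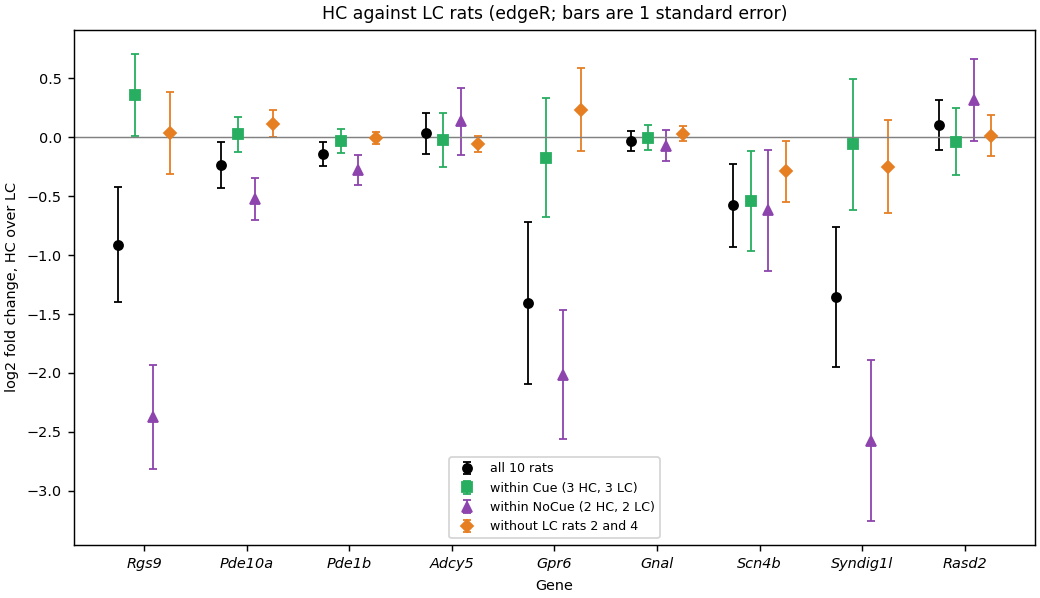
Points are edgeR log2 fold changes, HC over LC, for each gene, with bars of 1 standard error, for all 10 rats, within Cue, within NoCue and without LC rats 2 and 4. The NoCue points of Rgs9, Gpr6 and Syndig1l lie at -2.38, -2.01 and -2.57, and those without LC rats 2 and 4 at 0.04, 0.23 and -0.25.

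Other genes of striatal projection neurons were also read in LC rat 4. Their lists were written with earlier results of these data known, so their counts, here and in HC vs. LC, carry no test. Of the markers of indirect-pathway neurons, 4 of 4 tested were at least 2 times the median of the other rats, beside 1.97% of all tested genes: Adora2a, their adenosine receptor (7.71 times), Six3, a homeobox gene of these cells (4.30), Drd2, the D2 dopamine receptor (4.15), and Penk, the enkephalin precursor (2.82). Adora2a was at 28.9 CPM in LC rat 4 and 3.23 to 5.49 CPM in the other 9. Direct-pathway markers passed that fold in 4 of 6, with Slc35d3 at 3.70 times, the D1 receptor gene Drd1 at 2.75, the substance P precursor Tac1 at 2.25 and the dynorphin precursor Pdyn at 2.16, while Chrm4, the M4 muscarinic receptor, was at 0.915. Markers shared by both types passed in 6 of 16, led by Lrrc10b (3.13), Rarb, a retinoic acid receptor (3.06), and Ppp1r1b, which encodes DARPP-32, the protein kinase A target of striatal neurons (2.58). LC rat 4 was the highest rat for 12 of the 16. LC rat 2 lay above LC rat 4 for Foxp1 (118 against 58.7 CPM), Meis2 (264 against 208), Arpp21 (666 against 479) and Ano3 (227 against 154). Sums over each list used TPM rescaled without mitochondrial genes, not the deposited TPM. On that scale indirect-pathway markers summed to 251 in LC rat 4 and 62.8 to 139 in the others. Direct-pathway markers summed to 215 against 106 to 149, and shared markers to 1455 against 832 to 1234.

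A pair of listed genes, both below the filter on low counts, was read only in LC rats 2 and 4. The share of all genes with reads in these 2 libraries alone is not given here, so the pair carries no comparison. Isl1, a transcription factor gene of direct-pathway and cholinergic striatal neurons, had 17 exon reads for LC rat 4, 6 for LC rat 2 and 0 for each of the remaining 8. Lhx8, of forebrain cholinergic neurons, had 11, 2 and 0. Of the cholinergic markers 0 of 4 tested reached 2-fold in LC rat 4, which was the highest rat for 2 of them. Chat, which makes acetylcholine, was at 2.10 CPM there and 0.538 to 1.43 CPM in the others, and Slc17a8 at 2.03 against 0.840 to 2.02 CPM. Slc5a7 was higher in LC rat 2, at 7.13 CPM, than in LC rat 4, at 5.69 CPM. Slc18a3 was at 1.02 times the median of the others in LC rat 4, and Gbx2, which was not tested, at 0.778 times. The part of striatal tissue in these levels was not tested.

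In HC vs. LC, 2 of 4 indirect-pathway markers had an unadjusted p under 0.05, both lower in HC, as were 1.02% of all genes: Adora2a (log2 difference -1.33, standard error 0.57) and Penk (-0.71, standard error 0.28), with 0 at an adjusted p of 0.05. The list medians were -0.79 for indirect, -0.42 for direct and -0.28 for shared markers, with 0 of 6 and 0 of 16 genes at that unadjusted p, against 0.005 over all genes.

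Relatives of the 9 genes were read in the same way, but the listed Rgs11, Pde11a and Gnas were not found. Of 13 tested, among them Rgs7, Pde1a, Adcy6, Gpr3, Gpr12, Scn2b, Syndig1 and Rasd1, 0 were 2-fold higher in LC rat 4 and 0 reached an unadjusted p of 0.05 in HC vs. LC. Gpr12, a receptor of the Gpr6 family, was the highest at 1.52 times the median of the others, and Gpr3, of the same family, the lowest at 0.642. Of 17 partners of the cyclic AMP pathway, such as the protein kinase A subunits Prkaca and Prkar2b, the cyclases Adcy1 and Adcy9 and the phosphodiesterases Pde4a and Pde4b, the count was again 0 for both, with ratios of 0.822 to 1.22. The median log2 fold change was -0.07 for the relatives and 0.01 for the partners. Of the 9 genes, Adcy5 (1.18), Rasd2 (1.23), Gnal (1.24) and Pde1b (1.41) had LC rat 4 ratios inside the range of the relatives.

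Markers of the other cells of the dissected piece were measured beside these. In LC rat 4, 0 of 9 excitatory cortical, 0 of 7 GABAergic, 0 of 9 oligodendrocyte, 0 of 6 astrocyte and 0 of 6 microglial markers were 2-fold higher, with median ratios of 0.944, 1.06, 1.13, 0.955 and 0.988. The count was also 0 of 6 for claustrum and septum, 0 of 4 for thalamus and 0 of 2 for choroid plexus. It was 1 of 5 for vascular cells (Vtn, which encodes vitronectin, at 2.10 times) and 1 of 2 for ependyma (Ccdc153, at 2.66 times), where 1.97% of all tested genes were past that fold. Of 7 tested genes of migrating neuroblasts and forebrain GABAergic precursors, 2 were: Dlx5 at 2.08 and Dlx2 at 2.00 times, both homeobox genes. Dlx1, Dlx2 and Dlx5 also had an unadjusted p under 0.05 in HC vs. LC, with log2 fold changes of -0.29, -0.77 and -0.81, as had Ccdc153, an ependymal gene (-0.86), and Ermn, an oligodendrocyte gene (-0.35). Of all tested genes 1.74% were past that level. Dlx5 was higher in LC rat 2, at 12.9 CPM, than in LC rat 4, at 10.3 CPM. Zic1, of the claustrum and septum list, was at 1.99 times. Among listed genes with too few reads to be tested, Igfbpl1 (neuroblasts) was at 9.04 times, from 28 exon reads in LC rat 4. Clic6, Folr1 and Kl (choroid plexus) were at 8.07, 4.10 and 2.11 times, from 5, 5 and 12 reads. Dynlrb2 (ependyma) was at 0.993, and the tested choroid plexus genes Ttr and Kcne2 at 0.467 and 0.909 times. The part of all these cell types in the levels of the 9 genes was not tested.

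**Figure D4:**
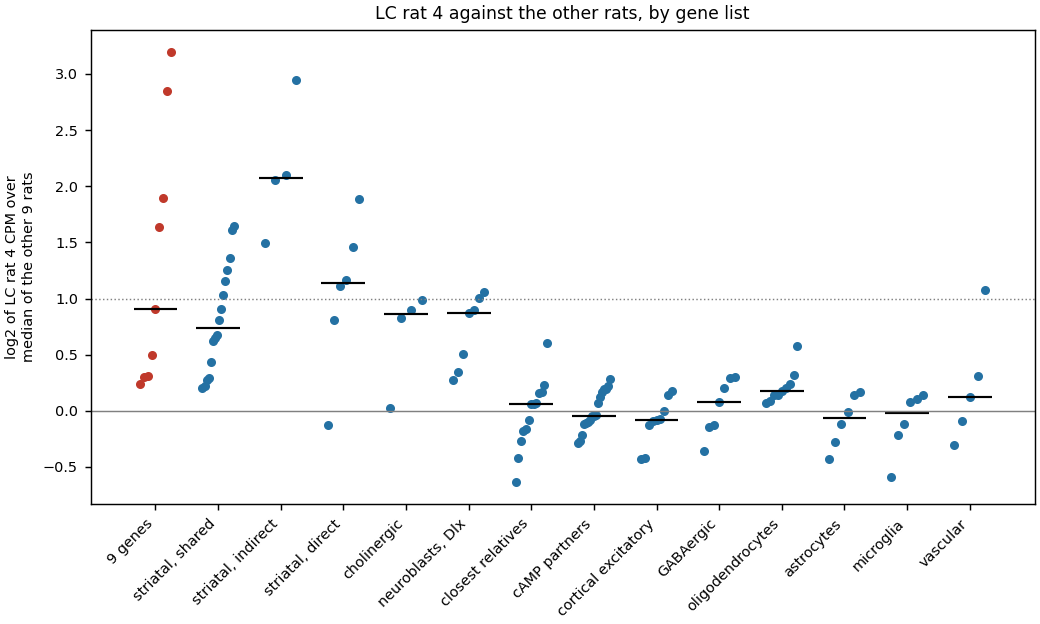
Each point is a tested gene, placed at the log2 of its CPM in LC rat 4 over the median of the other 9 rats, by list, with a line at each list's median and a dotted line at 2-fold. The 9 genes are red, and the lists of striatal neurons lie above 0 apart from Chrm4 while those of cortical neurons and glia lie around 0.

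The genes most like the 9 in pattern were found by correlating log2 CPM with their mean standardized level, in which LC rat 4 stood at 2.01 and the other 9 rats between -0.33 and 0.06. Of 12196 genes with a mean of at least 50 reads, the 10 highest were Ppp1r1b (r = 0.98), Six3 (0.96), Adora2a (0.96), Strip2 (0.95), Sdhb (0.91), Patj (0.91), Med8 (0.89), Slc35d3 (0.89), AABR07052588.1 (0.88) and Gng7 (0.88), each over 10 rats of which LC rat 4 sets most of the range. Over the 9 other rats the same correlations were -0.22 to 0.46. In this ranking Sdhb, a subunit of succinate dehydrogenase, was at 88.3 CPM in LC rat 4 and 79.9 to 83.1 CPM in the others, a ratio of 1.09, whereas Strip2 was at 3.12 times and Gng7, a G protein gamma subunit of striatal neurons, at 2.39 times.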

How the data were processed

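Total RNA libraries (stranded kit, single-end reads) of 10 rats were used. The authors trimmed reads, mapped them to the rat genome Rnor_6.0 in CLC Genomics Workbench and deposited, per rat and gene, raw counts of reads (exon, unique exon, intron, gene) and TPM, in which exon reads are divided by exon length and scaled to 1000000 per library. A deposited table of the authors' own HC vs. LC fold changes and p-values was not used. TPM of LC rat 2 are low for nuclear genes, since 52.0% of its TPM is mitochondrial.

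Exon reads were filtered (filterByExpr by phenotype), TMM scaled and tested with edgeR 4.0.16 in R 4.3.3 (glmQLFit, glmQLFTest; Benjamini-Hochberg over 14135 genes); the standard error is the log2 fold change over the square root of F. Fits were phenotype alone, phenotype with the word in the table name, and the 4 combinations of both. DESeq2 1.42.0 and limma 3.58.1 were alternatives. The fits were tested on simulated data. Members and lists were chosen with earlier results of these data known. Named genes were all members, list genes with an unadjusted p under 0.05 and up to 3 others with the largest change, and the 10 most alike in pattern; others were named after their values were seen. Of the listed symbols, 9 had no match. Promoters are from RefSeq (GRCr8) and counts use Rnor_6.0. P-values set a group difference against the spread between rats, which in the fit of the 4 combinations is estimated from all 10 rats together.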

Additional observations from a re-analysis of the deposited data

Results flagged for a closer look

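Within the 5 LC rats, LC rat 4 lay far from the rest for 4 of the 9 genes, its gap to the next rat taking more than 0.71 of the group's range: Pde1b at 133 CPM against 92.9 to 100.3 in the others, Gpr6 at 12.8 against 1.09 to 3.37, Gnal at 81.0 against 60.9 to 66.6 and Syndig1l at 12.3 against 0.882 to 3.47 CPM. In all, 18 groups of 5 rats were examined. Chance flags about 1 in 20 groups, but these genes were picked with the level of LC rat 4 known, so that rate does not apply to them and the 4 values are a description.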

How the results depend on the processing

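No paired analysis was possible because the HC and LC rats share no replicate numbers. In HC vs. LC, 1 of the 9 genes had an unadjusted p under 0.05. The count was 3 with DESeq2, where 2.19% of all genes were past that level, and 0 with library size alone, a mean of at least 50 reads (which removes Gpr6 and Syndig1l), limma-voom, limma-trend on log2(TPM + 1), on log2(TPM + 0.1) or on TPM rescaled without mitochondrial genes (added after seeing the data), LC rats 2 and 4 left out, or the word as a term. The median of -0.24 turned to 0.036 and 0.039 with the TPM pseudocounts of 1 and 0.1 and to 0.014 without LC rats 2 and 4. With 1 rat left out the count was 0 to 3, and the median -0.36 to -0.031. The count was 3 without LC rat 12 or 13, and 0 without any 1 HC rat or LC rat 4. For the fits with 1 rat left out the share of all genes is not given here, so their counts carry no comparison.

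Directions turned for single genes, with 0 of the turned values at an unadjusted p under 0.05. The TPM fits with pseudocounts of 1 and 0.1 moved the median of all genes to 0.20 and 0.23, and values below are not corrected for it. Gnal went to 0.059 with library size alone, 0.191 and 0.194 with the TPM pseudocounts of 1 and 0.1, 0.0038 with rescaled TPM and 0.032 without LC rats 2 and 4. Pde10a went to 0.036 (pseudocount 1) and 0.039 (0.1), and to 0.12 without LC rats 2 and 4, and Pde1b to 0.091 and 0.093. Without LC rats 2 and 4, Rgs9 went to 0.037, Gpr6 to 0.23 and Adcy5 to -0.059. With 1 rat left out, Adcy5 ran from -0.12 to 0.13, Rasd2 from -0.044 to 0.27 and Gnal from -0.065 to 0.044.

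In Cue vs. NoCue the count of 2 was 3 with DESeq2, its size factors, unique exon reads or mitochondrial genes removed (Pde1b added) and with total gene reads (Gnal added). It was 1 with both TPM fits, and the median of -0.50 became -0.12 and -0.10; Pde1b went to 0.061 and 0.062 and Gnal to 0.12 and 0.13. With 1 rat left out the count was 2 to 5 (5 without LC rat 2), the median -0.60 to -0.044 (highest without LC rat 4), Rasd2 -0.17 to 0.23, Adcy5 -0.038 to 0.39 and Rgs9 -0.997 to 0.045. Within Cue the count was 0 to 1 (1 without LC rat 14) and the median -0.060 to 0.0052. Within NoCue the count of 4 was 2 with both TPM fits, with medians of 0.057 and 0.099, and 3 to 8 with 1 rat left out, with medians of -0.72 to -0.062. For the interaction the count of 4 was 2 with library size alone, a mean of at least 50 reads or rescaled TPM. It was 1 with both TPM fits (medians -0.11 and -0.11), and leaving out 1 rat gave medians of 0.029 to 0.72. The share of all genes at an unadjusted p under 0.05 is not given here for these settings, so the counts of this paragraph carry no comparison. The cause of these changes was not tested. Depth limits Gpr6 and Syndig1l, read from 15 to 56 and 16 to 84 exon reads in the 9 rats other than LC rat 4.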
